A study of Mus musculus with 2 samples.

Results

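The epidermal differentiation complex of mouse chromosome 3 was described here from single-cell chromatin accessibility (scATAC-seq) peaks. All peaks called in either library from 90.4 to 93.8 Mb of chromosome 3 (mm10) were taken, a choice by position that used no measured value. This gave 296 of 249619 Control peaks and 429 of 340079 MOF cKO peaks on the autosomes, X and Y. Peaks that overlapped by at least 1 bp were merged into 451 regions of 369634 in all. Of these, 271 regions had a peak from each library, of 214119 such shared regions in all, and only these have a value in both libraries. The interval holds 85 annotated protein-coding genes. The nearest shared regions around the borders were at 5.39 CPM in Control and 3.80 CPM in MOF cKO just inside the Ints3 end and 2.20 and 2.23 CPM just outside it. They were at 1.19 and 4.31 CPM just inside the Tdpoz end and 2.38 and 1.83 CPM just outside it.

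The libraries came from back skin of E16.5 embryos, 1 from Control and 1 from MOF cKO (MOFfl/fl/K14Cre) embryos. MOF is a histone acetyltransferase that acetylates histone H4, and the Krt14 promoter drives Cre in basal epithelial cells and all cells that descend from them, so that the dermis keeps the gene. Controls were littermates that were wild type or heterozygous, on a mixed C57Bl/6J and CD-1 background. Both carried the K14-H2BGFP reporter, by which GFP-positive epithelial cells and GFP-negative cells were sorted and, per the labels, mixed again at 5:1 (the study's text gives 2 other ratios), so that shares of cell classes follow the sort. With 1 library per genotype there was no replicate and no test was possible. All intervals are exact 95% intervals that cover counting error only.

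The epidermal differentiation complex groups genes that keratinocytes turn on as they leave the basal layer and cornify. Loricrin (Lor), involucrin (Ivl), the small proline-rich proteins (Sprr) and the late cornified envelope proteins (Lce) are precursors that transglutaminases cross-link into the cornified envelope. The S100-fused proteins (Flg, Flg2, Hrnr, Rptn, Tchh, Tchhl1, Crnn) bind keratin filaments or the envelope, while the S100 genes encode small calcium-binding proteins that many tissues also use. AP-1 factors, dimers of Fos and Jun proteins, bind the heptamers TGAGTCA and TGACTCA and are known regulators of keratinocyte differentiation genes.

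The Control library held 2541 barcodes with 169641002 transposition cut sites and the MOF cKO library 4348 barcodes with 324310197, at medians of 64436 and 66239.5 sites per cell of at least 1000 sites. The libraries shared 13 barcode sequences. Clustering without the regions of the complex gave 1292 Control and 2552 MOF cKO epithelial-like cells, of which 830 and 1600 were basal-like, 90 and 686 suprabasal-like and 372 and 40 hair follicle-like. A further 226 MOF cKO cells of low depth (median 18797.5 sites) were left unassigned but stayed in the epithelial-like class. In Control, 305 cells of lower depth formed a cluster without a name that entered no class. The Control epithelial-like cells lay in clusters 2 and 5 and the MOF cKO ones almost all in clusters 0, 3, 6 and 14, so different clusters make up the class in the 2 libraries. Of 20 suprabasal markers outside the complex, 12 in Control and 9 in MOF cKO were at least 1.25-fold more accessible in suprabasal-like than in basal-like cells. Krt1, Krt10, Krtdap and Dmkn passed this margin in Control only, and Prdm1 in MOF cKO only. Of 14 basal markers, only 5 and 3 were more accessible by that margin in basal-like cells. The basal-like class holds the epithelial-like sub-clusters that neither suprabasal nor hair follicle markers set apart, and 6 of its 9 sub-clusters had no basal marker past the margin, so that it is a remainder rather than a class with strong markers of its own. Fibroblast-like cells (657 and 1250) and immune-like cells (46 and 281) were the comparison classes. Their make-up by cluster differed between the libraries too. Of fibroblast-like cells, cluster 1 held 273 in Control and 587 in MOF cKO, cluster 4 held 18 and 583, and cluster 7 held 366 and 80. Of immune-like cells, cluster 9 held 24 and 244 and cluster 15 held 22 and 37. The promoter of Mof itself (Kat8) was accessible in epithelial-like cells of both libraries, at 49.8 CPM (sites per 1e6 sites) in Control and 36.9 CPM in MOF cKO. Along the gene body, 2 regions had a peak in Control only and 1 in MOF cKO only. The promoter gives no check of the deletion, and the position of the deleted exons is not given in the sources used here.

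Sequences of some regions that differed most between the genotypes, and of some promoters, are shown first. Among the distal regions whose level differed most between the genotypes, 3 carry the AP-1 heptamer, set in capitals in 120 bases of the plus strand around it (mm10, GRCm38).
Lce3a, chr3:92918317-92918436: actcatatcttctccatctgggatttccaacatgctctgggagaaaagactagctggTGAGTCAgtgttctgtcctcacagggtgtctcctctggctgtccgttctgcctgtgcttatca
Lce3f, chr3:92986762-92986881: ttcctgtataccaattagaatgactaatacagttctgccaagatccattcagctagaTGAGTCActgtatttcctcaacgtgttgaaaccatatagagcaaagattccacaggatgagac
S100a11, chr3:93517743-93517862: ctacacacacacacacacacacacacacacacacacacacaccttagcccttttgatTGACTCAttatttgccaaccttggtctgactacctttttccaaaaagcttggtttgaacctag
The region with the highest fold of all lies between Lce3f and Crct1 and holds neither heptamer, as the central 120 bases show.
Lce3f, chr3:93000639-93000758: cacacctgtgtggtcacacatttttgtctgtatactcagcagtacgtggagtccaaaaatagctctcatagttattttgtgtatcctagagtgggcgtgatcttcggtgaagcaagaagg
Over the genome, 9.95% of all distal regions that were at least 2-fold lower in MOF cKO held the heptamer. None of the 11 regions of the complex that were lower by this margin, 8 of them distal, held it. The central 120 bases of 2 of them, in the Lce group and beyond S100a10, read as follows.
2310050C09Rik, chr3:92894238-92894357: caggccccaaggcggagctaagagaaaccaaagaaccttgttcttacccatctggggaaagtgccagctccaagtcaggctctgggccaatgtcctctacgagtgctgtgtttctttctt
S100a10, chr3:93568768-93568887: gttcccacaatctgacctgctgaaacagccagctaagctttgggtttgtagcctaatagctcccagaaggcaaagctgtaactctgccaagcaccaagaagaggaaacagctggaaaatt
Of the RefSeq promoters (GRCm38.p6, 250 bases before to 50 after the start site), 64 of the 85 genes had an entry, and 12 of these held a heptamer (18.8%, beside 5.17% of 27025 promoters in the table). The 12 were Lor, Prr9, Ivl, Sprr1a, Sprr2b, Sprr2d, Sprr2e, Sprr2f, Sprr2h, Sprr2i, Sprr2k and S100a11. Thus 8 of 14 Sprr promoters, 0 of 20 Lce promoters and 0 of 7 S100-fused promoters held one. Most of the 12 are Sprr2 genes, which contain near-identical copies. Shared regions within 500 bp of a start site are longer, with a median of 922 bp in the complex. Of these, 9 of 39 in the complex held a heptamer (23.1%, 11.1 to 39.3), beside 15.2% of all. The 250 bases upstream of 4 genes are given on the strand of the gene, with the heptamer in capitals. Sprr1a, Ivl and Lor carry it within 250 bases of the start site of a cornified envelope precursor, and Lce6a, the Lce gene with the most accessible promoter, lacks it.
Sprr1a, chr3:92485882-92486131: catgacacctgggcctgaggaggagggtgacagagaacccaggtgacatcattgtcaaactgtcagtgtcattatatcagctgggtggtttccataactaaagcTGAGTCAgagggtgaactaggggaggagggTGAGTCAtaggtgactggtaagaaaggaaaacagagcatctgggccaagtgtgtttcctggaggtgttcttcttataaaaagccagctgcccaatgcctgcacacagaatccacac
Ivl, chr3:92573736-92573985: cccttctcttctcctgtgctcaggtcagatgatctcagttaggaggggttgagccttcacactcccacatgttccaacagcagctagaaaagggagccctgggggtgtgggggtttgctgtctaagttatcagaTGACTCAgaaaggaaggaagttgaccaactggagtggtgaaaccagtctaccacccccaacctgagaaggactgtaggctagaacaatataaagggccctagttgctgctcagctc
Lor, chr3:92083143-92083392: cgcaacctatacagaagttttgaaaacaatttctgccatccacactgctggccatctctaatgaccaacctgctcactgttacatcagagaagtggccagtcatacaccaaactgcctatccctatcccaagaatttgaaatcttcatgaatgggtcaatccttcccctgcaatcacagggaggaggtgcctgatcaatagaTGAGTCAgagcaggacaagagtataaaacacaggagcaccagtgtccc
Lce6a, chr3:92621661-92621910: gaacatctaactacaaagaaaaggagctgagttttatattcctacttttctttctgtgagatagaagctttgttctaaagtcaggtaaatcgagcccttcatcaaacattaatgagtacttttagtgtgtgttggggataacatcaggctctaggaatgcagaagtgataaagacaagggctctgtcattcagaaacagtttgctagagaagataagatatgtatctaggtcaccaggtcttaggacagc

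The complex was accessible mainly in epithelium, and more so in MOF cKO than in Control epithelial-like cells. Of all sites in shared regions, the complex held 0.162% (0.160 to 0.163) in epithelial-like cells of Control and 0.184% (0.183 to 0.184) in those of MOF cKO, a ratio of 1.14 (1.13 to 1.15). The ratio was 1.08 (1.07 to 1.09) in basal-like cells, from 0.169% to 0.182%, and 1.00 (0.975 to 1.03) in suprabasal-like cells, at 0.191% in each library. In hair follicle-like cells it was 1.03 (0.982 to 1.09), from 0.143% to 0.147%. The ratio of the whole class lies above each of these. Hair follicle-like cells, with the lowest share of the 3, were 372 of 1292 Control and 40 of 2552 MOF cKO epithelial-like cells. Fibroblast-like cells, in which the Krt14 promoter is not active, had 0.0812% (Control) and 0.0801% (MOF cKO), a ratio of 0.987 (0.968 to 1.01). Immune-like cells, which do not use that promoter either, had a ratio of 1.16 (1.08 to 1.25), from 0.0911% in 46 Control cells to 0.106% in 281 MOF cKO cells, as large as the epithelial-like one. The epithelial-like share thus stood 1.99-fold (1.96 to 2.02) over the fibroblast-like share in Control and 2.29-fold (2.26 to 2.32) in MOF cKO. The share per single cell had medians of 0.162% (Control) and 0.181% (MOF cKO) in epithelial-like cells, and 0.160% and 0.180% when each cell was thinned to 5000 sites, where 1 site is a step of 0.02%. In suprabasal-like cells the thinned medians had the reverse order, 0.2% in Control and 0.180% in MOF cKO.

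Levels are in CPM, sites per 1e6 sites in shared regions of the same cell class and library. Each library's sites were counted in its own peaks, so the peak extents that enter a region or a summed level can differ between the libraries. In Control, 198 of 271 regions (73.1%) were at least 2-fold higher in epithelial-like than in fibroblast-like cells, beside 40.1% of all shared regions, and 10 were at least 2-fold lower, beside 24.8%. In MOF cKO the counts were 213 (78.6%, beside 41.9%) and 9 (beside 24.4%). All 11 shared Sprr2 regions and all 16 of the Pglyrp4 interval were in the higher group in Control, as were 43 of 49 Lce regions and 19 of 21 of the Sprr1-Sprr3-Ivl group. The group at the Ints3 end of the interval (Ints3, Npr1, Ilf2, Snapin and Chtop), which holds no differentiation gene, had 4 of 18. The S100 block had 26 of 46 and the S100a11-S100a10 group 13 of 29. Fewer than 1 CPM was found in fibroblast-like cells of both libraries for 185 of the 271 regions. The share over all shared regions is not given, so this count does not set the complex apart. A region 27.4 kb upstream of Lelp1, a late cornified envelope-like gene, was at 22.8 CPM in Control epithelial-like cells and 0.278 CPM in fibroblast-like cells. Some regions had the reverse order. A region 1.35 kb from the start site of S100a4, the fibroblast-specific protein gene, was at 12.5 CPM in Control fibroblast-like and 0.724 CPM in epithelial-like cells.

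**Figure D1:**
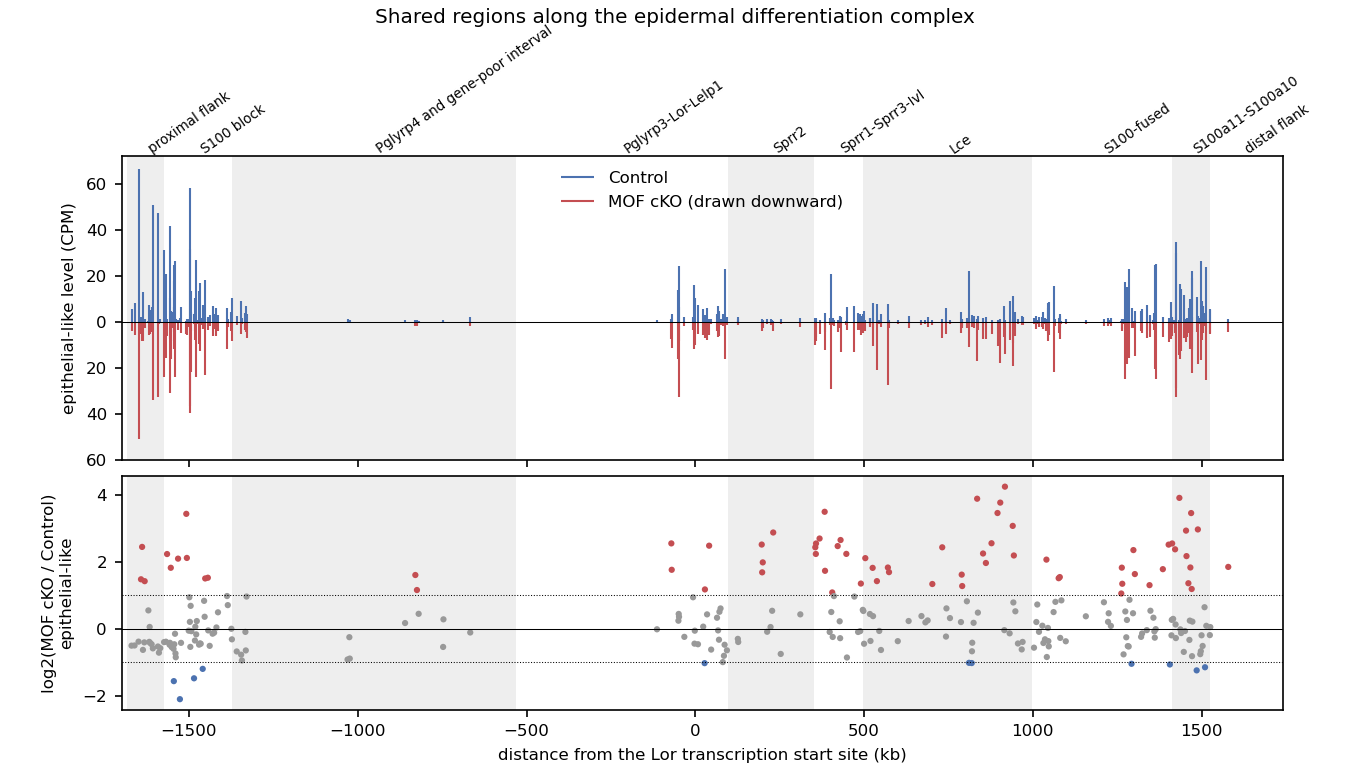
Level and change of the 271 shared regions of the complex in epithelial-like cells. The x axis is distance in kb from the Lor start site, the upper panel the level in CPM (Control upward, MOF cKO downward) and the lower panel log2(MOF cKO / Control) with dotted lines at 2-fold (red, rose; blue, fell). The most accessible promoter, at Ints3 (66.3 and 50.8 CPM), stands at the left end, and the Lce group holds 18 of the 71 regions that rose.

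Promoter peaks were fewer along the complex than over the genome. A shared region within 500 bp of a start site was found for 33 of the 85 genes (38.8%, beside 73.8% of all annotated protein-coding genes), a region of 1 library for 13 and none for 39. Of the S100 genes, 13 of 14 had a shared promoter region. The count was 2 of 4 for Sprr1a, Sprr1b, Sprr3 and Sprr4, 4 of 21 for Lce genes, 2 of 7 for S100-fused genes (Crnn and Tchhl1) and 0 of 11 for Sprr2 genes, 4 of which had one in 1 library. Sprr2, Lce and filaggrin-type genes contain near-identical copies or repeats, where reads that map to several places can be lost, so that a lack of peaks there is uncertain. No shared region lay over Flg2, Hrnr, Rptn or Pglyrp3, and the single shared region over Flg (chr3:93273523-93293686), the gene of profilaggrin, was at 1.08 and 1.87 CPM in epithelial-like cells of Control and MOF cKO. The promoter of Lor had a peak in MOF cKO only. The 2 shared regions over the Lor gene body (chr3:92080271-92083142) summed to 26.3 and 21.7 CPM in epithelial-like cells and 29.3 and 27.1 CPM in fibroblast-like cells. The 3 over Tchh, the trichohyalin gene, summed to 53.7 and 49.1 CPM in epithelial-like and 52.6 and 55.4 CPM in fibroblast-like cells.

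The next comparison asked how accessibility along the complex differed between the MOF cKO and the Control library. In epithelial-like cells 71 of 271 shared regions (26.2%) rose at least 2-fold in MOF cKO, beside 18.1% of all shared regions, and 11 (4.06%) fell at least 2-fold, beside 9.98%. The median log2 change was 0.13 (quartiles −0.40 and 1.17), beside −0.09 for all shared regions. In basal-like cells 69 of 271 rose (25.5%, beside 18.7% of all), 17 fell (6.27%, beside 10.95%) and the median was 0.02, beside −0.10 for all. Of the 71 regions, 68 rose in basal-like cells and 60 in suprabasal-like cells. Both are parts of the epithelial-like class by which the 71 were chosen, so these counts are a description and no separate support. In fibroblast-like cells 49 of the 71 had at least 20 sites, and 14 of these rose there too (28.6%, beside 10.98% of all shared regions). Of the 71, 59 (83.1%) were under 2 CPM in Control, beside 48.3% of the 271, 56.7% of all shared regions and 75.5% of all shared regions that rose, and a choice by rise favours low Control levels. The lower end of the counting interval was above 2-fold for 61 of the 71. These intervals come from the counts by which the 71 were chosen, and the share over all shared regions that rose is not given. The count is thus a description of counting error only.

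The rise was uneven along the chromosome. In the Sprr1-Sprr3-Ivl group 11 of 21 regions rose and none fell (median log2 change 1.09), and at the Tdpoz end 1 of 2 rose (median 0.95). In the Lce group 18 of 49 rose and 2 fell (median 0.48), and in the Sprr2 group 4 of 11 rose and none fell (median 0.43). The S100-fused group had 12 of 53 that rose and 2 that fell (median 0.21), and the S100a11-S100a10 group 9 of 29 and 2 (median 0.09). Lower medians were found in the other 4 groups. At the Ints3 end 3 of 18 rose (median −0.42), in the S100 block 7 of 46 rose and 4 fell (median −0.13), in the Pglyrp4 interval 2 of 16 rose (median −0.18) and around Pglyrp3, Lor and Lelp1 4 of 26 rose and 1 fell (median 0.02). In epithelial-like cells the summed level of the Sprr1-Sprr3-Ivl group went from 65.2 CPM in Control to 134.1 CPM in MOF cKO, 2.06-fold. The Lce group went from 147.0 to 278.6 CPM, 1.89-fold, and the Sprr2 group from 12.4 to 22.1 CPM, 1.78-fold. The Tdpoz end went from 6.13 to 9.42 CPM, 1.54-fold. The S100 block was at 431.8 and 400.5 CPM, a ratio of 0.928, and the Ints3 end at 250.4 and 194.6 CPM, a ratio of 0.777. In basal-like cells alone the ratios were 1.71 for Sprr1-Sprr3-Ivl, 1.74 for Lce and 1.59 for Sprr2. The Pglyrp4 interval had a basal-like ratio of 0.752, with 5 of its 16 regions that fell in basal-like cells and a median of −0.53. In fibroblast-like cells the ratios of Sprr1-Sprr3-Ivl, Lce and Sprr2 were 1.17, 1.05 and 1.21, and the counting interval of each includes equal levels.

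**Figure D2:**
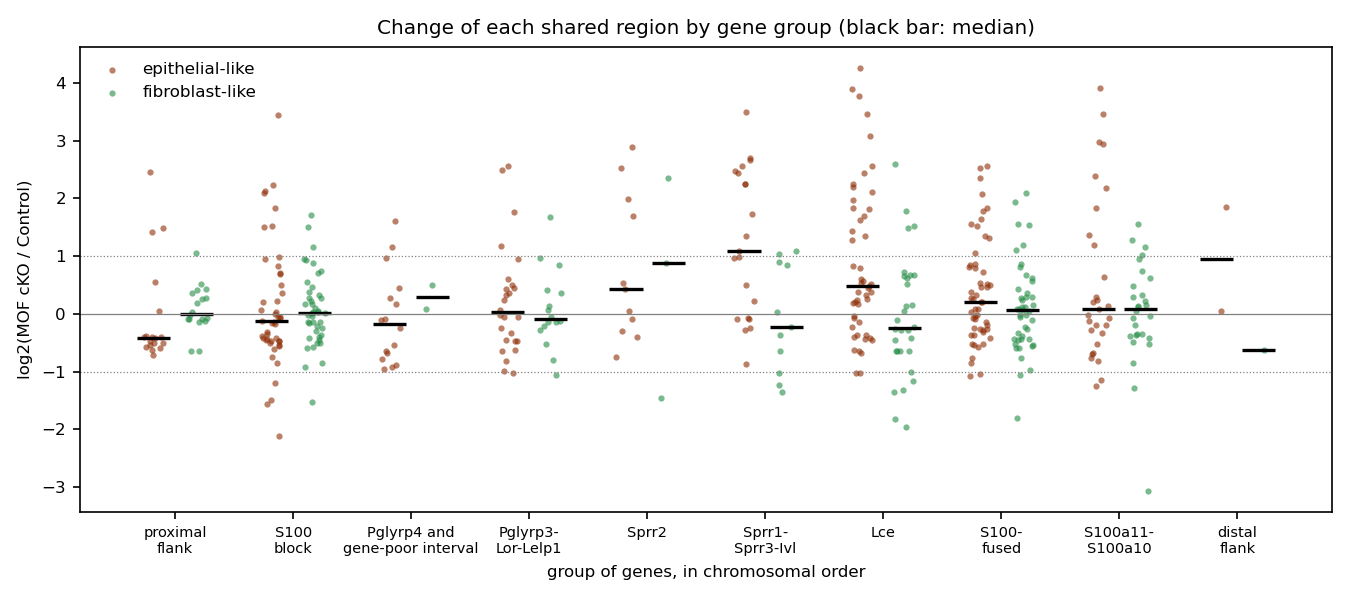
Log2(MOF cKO / Control) of each shared region of the complex with at least 20 sites, by gene group in chromosomal order, in epithelial-like (brown) and fibroblast-like (green) cells, with black bars at the medians and dotted lines at 2-fold. In epithelial-like cells the Sprr1-Sprr3-Ivl group has the highest median of the groups of more than 2 regions, 1.09.

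Hair follicle-like cells made up 372 of the 1292 Control epithelial-like cells and 40 of the 2552 MOF cKO ones, and they were less accessible at the same groups. In Control, 69 of 270 regions (25.6%, beside 15.9% of all shared regions) were at least 2-fold lower in hair follicle-like than in basal-like cells and 15 (5.56%, beside 11.3%) were at least 2-fold higher. The lower ones included 23 of 49 Lce regions and 11 of 21 Sprr1-Sprr3-Ivl regions. Without hair follicle-like and unassigned epithelial cells, 69 regions rose (25.5%, beside 19.0% of all shared regions) and 15 fell (5.54%, beside 10.4%), and the median of the complex was 0.02, beside −0.09 for all. The group medians were then 0.95 for Sprr1-Sprr3-Ivl, 0.27 for Lce, 0.13 for Sprr2, 0.04 for S100-fused and −0.55 for the Pglyrp4 interval. The median of all distal regions of the complex changed sign under this choice, from 0.17 to −0.05, beside −0.03 for all distal regions.

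Distal regions, over 2000 bp from any start site, made up 46 of the 71 regions that rose. They were 26.6% of its 173 distal regions, beside 20.2% of all distal regions, and 8 fell (4.62%, beside 10.8%). Of 39 promoter regions 9 rose (23.1%, beside 5.59% of all promoter regions) and 1 fell (2.56%, beside 4.89%). The 5 distal regions with the largest rise were chosen for that rise, so their epithelial levels are a description. A region 8.47 kb downstream of the Lce3f start site (chr3:93000246-93001152, intergenic) stood at 0.734 CPM in Control epithelium and reached 14.03 CPM in MOF cKO (log2 4.26, 3.78 to 4.78). It was at 0.467 and 12.5 CPM in basal-like, 1.32 and 18.4 CPM in suprabasal-like and 0.404 and 0.161 CPM in fibroblast-like cells. Basal-like and suprabasal-like cells are parts of the class by which the region was chosen, so these levels too are a description. The region 2.92 kb upstream of S100a11 (chr3:93517104-93518037) went from 0.948 to 14.4 CPM (log2 3.92, 3.499 to 4.37). The region 7.84 kb from Lce3a (chr3:92917937-92918842) went from 1.13 to 16.8 CPM (log2 3.90, 3.51 to 4.31), and that 5.36 kb upstream of Lce3f (chr3:92986407-92987332) from 1.29 to 17.8 CPM (log2 3.78, 3.42 to 4.16). These 3 are the regions whose heptamers are printed above. The region 7.85 kb upstream of Sprr3 (chr3:92466156-92466977) went from 0.387 to 4.39 CPM (log2 3.504, 2.84 to 4.25). Its MOF cKO level was higher in suprabasal-like cells, at 7.97 CPM, than in basal-like cells, at 3.19 CPM.

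The share of cells with a site is given for the same 5 regions as a description, since it comes from the counts that chose them. After thinning each cell to 20000 sites, 0.663% of Control and 16.0% of MOF cKO basal-like cells had a site in the region 8.47 kb from Lce3f, beside 0.531% and 0.173% of fibroblast-like cells. The shares before thinning were 1.57% and 34.8% in basal-like and 0.761% and 0.400% in fibroblast-like cells, at median depths of 69598, 87268, 64413 and 52724 sites. For the region 7.84 kb from Lce3a the thinned shares in basal-like cells were 1.72% and 21.7%, and for that 5.36 kb upstream of Lce3f they were 2.25% and 21.5%. In Control basal-like cells no region of the 5 passed 2.25%, and in MOF cKO fibroblast-like cells none passed 1.90%.

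**Figure D3:**
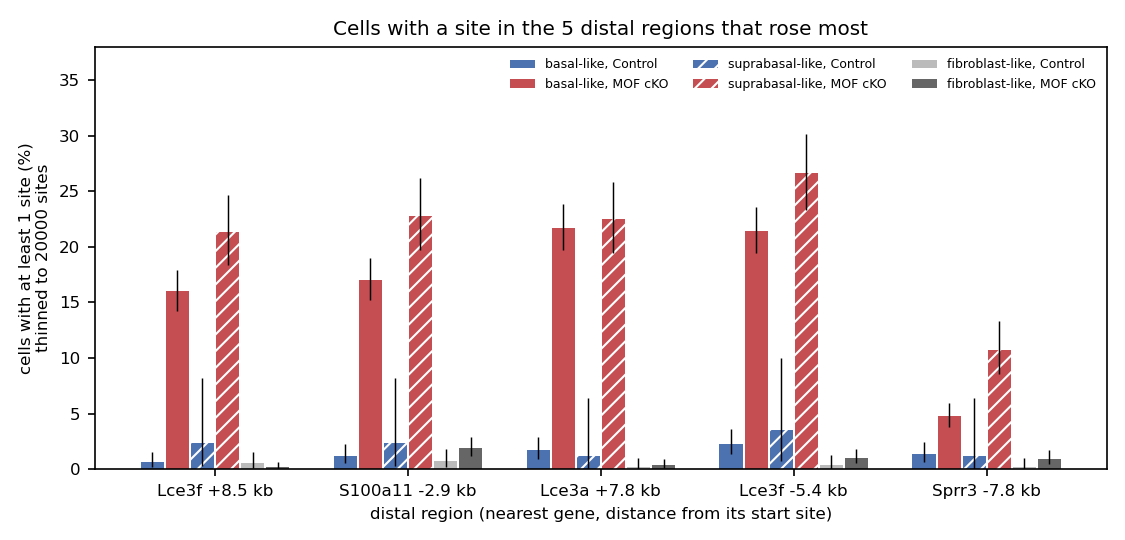
Percent of cells with at least 1 site in each of the 5 distal regions that rose most, after thinning every cell to 20000 sites, by class and library, with exact binomial 95% intervals. In these regions, which were chosen for their rise in epithelial-like cells, MOF cKO basal-like and suprabasal-like cells stand above Control in each region, while the highest fibroblast-like share is 1.90%.

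Promoter changes differed between the gene families. Of the genes of cornified envelope proteins and their neighbours, Sprr1b rose from 1.83 to 9.96 CPM (log2 2.44, 2.13 to 2.77) in epithelial-like cells, and Ivl from 2.29 to 5.86 CPM (log2 1.35, 1.06 to 1.66). Prr9, a proline-rich protein gene between Lor and Lelp1, rose from 1.06 to 5.95 CPM (log2 2.49, 2.08 to 2.93). Among Lce promoters, Lce6a rose from 7.72 to 20.7 CPM, Lce3c from 1.92 to 7.51 CPM and Lce1b from 0.877 to 2.84 CPM, while Lce1h was at 0.897 and 1.02 CPM. Tchhl1, of the S100-fused genes, rose from 1.89 to 6.5 CPM, and Smcp from 0.928 to 4.02 CPM. Sprr1a, whose promoter holds 2 heptamers, was the most accessible Sprr promoter. In epithelial-like cells it was at 20.6 and 29.1 CPM (log2 0.50, 0.40 to 0.61). It was at 22.0 and 28.5 CPM in basal-like cells and at 46.3 and 31.6 CPM in suprabasal-like cells, so that its order reversed between these classes. Crnn, the gene of cornulin, was at 15.5 and 21.9 CPM (log2 0.50).

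Of the 17 shared promoter regions of S100 genes, 14 were lower in MOF cKO and 3 higher, with 1 that fell at least 2-fold and 0 that rose. Their median log2 change, −0.35, was close to that of all promoter regions, −0.38, and 8 of the 17 lay below the latter. The shared S100a11 promoter region was at 16.4 and 16.1 CPM (log2 −0.02). A second S100a11 promoter region that adjoins it had a peak in Control only, at 17.8 CPM. The shared region thus holds only part of the Control signal there. S100a3 was at 58.0 CPM in Control and 39.8 CPM in MOF cKO (log2 −0.54), S100a14 at 41.6 and 31.1 CPM (log2 −0.42), S100a6 at 13.4 and 9.64 CPM (log2 −0.48) and S100a10, the annexin A2 partner, at 21.9 and 12.4 CPM (log2 −0.82). The promoter of Pglyrp4, a peptidoglycan recognition protein gene, was at 8.99 and 5.25 CPM (log2 −0.78) and at 13.2 and 5.31 CPM in basal-like cells (log2 −1.31). The promoters of the flanking genes Ints3, Ilf2, Snapin and Chtop, which most cells use, lay between −0.39 and −0.59. Of the S100 promoters, 1 fell, an intronic region of S100a16 (chr3:90537735-90538648), from 24.6 to 8.30 CPM (log2 −1.57, −1.70 to −1.44). Higher values in MOF cKO were found at a second promoter region of S100a3 (chr3:90583693-90584640), at 1.27 and 2.45 CPM (log2 0.94), and at S100a8 and S100a9, the calprotectin subunits of inflamed epidermis. S100a9 was at 5.96 and 11.8 CPM (log2 0.98, 0.79 to 1.17) and S100a8 at 2.78 and 3.92 CPM (log2 0.49). In suprabasal-like cells S100a8 rose from 2.65 to 6.99 CPM (log2 1.40), whereas in basal-like cells it was at 2.40 and 2.73 CPM. The 2.65 CPM is a low count, from 90 Control cells with 6041496 sites in shared regions. Myeloid cells also use both genes. Immune-like cells of MOF cKO had 13.7 CPM at S100a8, and the promoters of 8 immune markers summed in epithelial-like cells to 47.7 CPM (Control) and 68.6 CPM (MOF cKO), beside 432.3 and 465.2 CPM in immune-like cells. None of the 8 was at 0, and their part in the S100a8 and S100a9 values was not tested. The 10 fibroblast markers summed to 107.0 and 95.4 CPM in epithelial-like and 405.5 and 368.6 CPM in fibroblast-like cells.

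**Figure D4:**
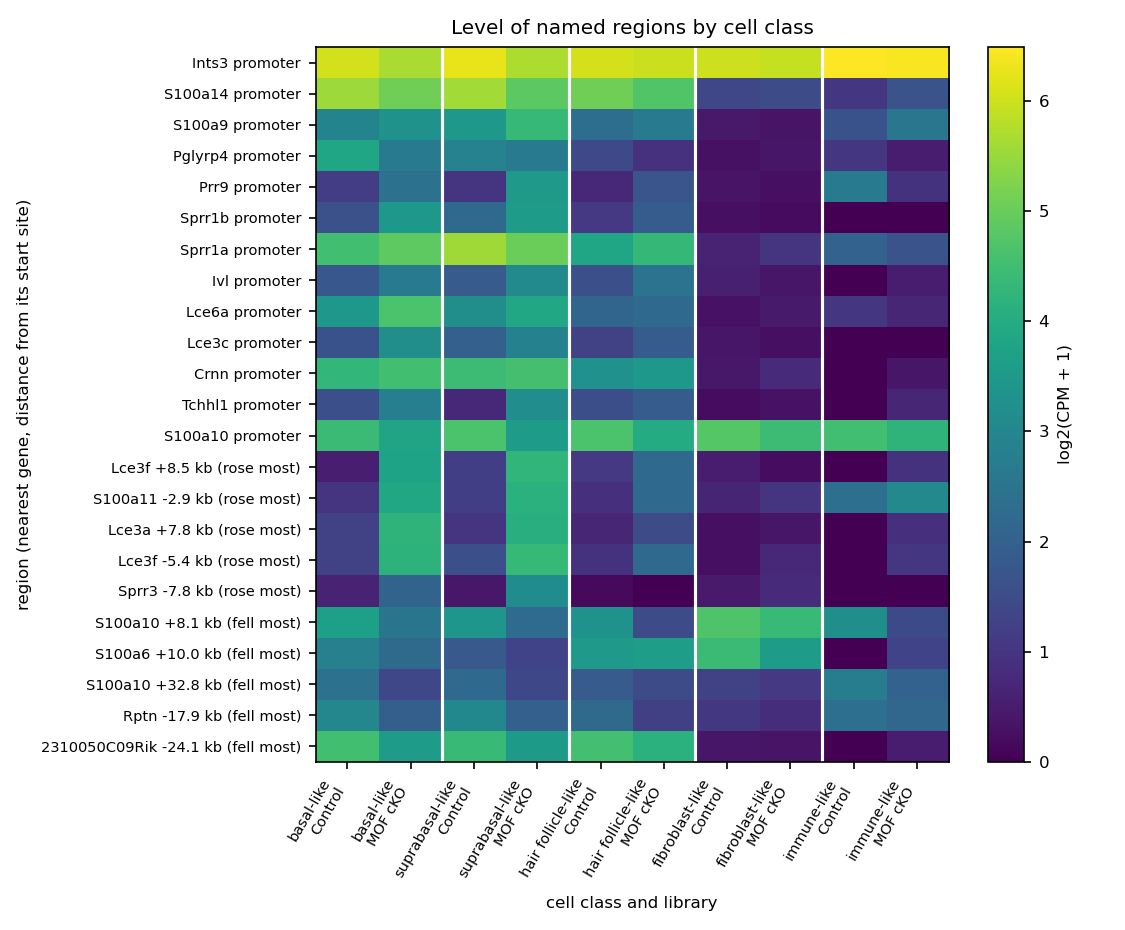
Level of named promoters and of the 5 distal regions that rose most and the 5 that fell most, as log2(CPM + 1), by cell class and library. The distal regions that rose are dark in Control and bright in MOF cKO in basal-like and suprabasal-like cells, and Ints3 is bright in every class.

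The regions that fell were fewer, and several were accessible in Control, which a choice by fall favours. The region 24.1 kb upstream of 2310050C09Rik (chr3:92893768-92894827), in the middle of the Lce group, went from 22.0 CPM in Control to 10.9 CPM in MOF cKO (log2 −1.02, −1.14 to −0.90), and was at 0.303 and 0.258 CPM in fibroblast-like cells. The Lce group thus held regions that opened and its most accessible Control region, which lost accessibility. The region 8.10 kb downstream of the S100a10 start site (chr3:93568364-93569292) went from 10.7 to 4.50 CPM (log2 −1.25, −1.43 to −1.06), and that 32.9 kb downstream (chr3:93593056-93594091) from 3.73 to 1.68 CPM (log2 −1.15). The region 17.9 kb upstream of Rptn (chr3:93375373-93376293) went from 5.95 to 2.88 CPM (log2 −1.05), and was at 7.0 and 2.91 CPM in basal-like cells. The region 10.0 kb from the S100a6 start site, in an S100a6 exon (chr3:90623295-90624228), went from 7.28 to 3.17 CPM (log2 −1.20). This region was also at 20.6 and 10.9 CPM in fibroblast-like cells, and its change in basal-like cells was −0.72. A region near Prr9 (chr3:92110436-92111263) fell in the whole epithelial-like class, from 2.38 to 1.16 CPM, but its log2 change in basal-like cells was 0.59.

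Between the epidermal classes, the complex was more often higher in suprabasal-like than in basal-like cells. In Control 35 of 269 regions (13.01%, beside 9.09% of all shared regions) were at least 2-fold higher in suprabasal-like cells and 23 (8.55%, beside 12.6%) at least 2-fold lower. In MOF cKO 25 of 271 (9.23%, beside 7.08%) were higher and 19 (7.01%, beside 11.4%) lower. The Control value rests on 90 suprabasal-like cells. The most marked in Control were a region 34.2 kb upstream of Lelp1, at 8.11 CPM in suprabasal-like and 1.35 CPM in basal-like cells, and a region 8.04 kb upstream of Rptn, at 18.5 and 4.05 CPM. In MOF cKO they were a region 4.67 kb upstream of Sprr4, at 11.9 and 1.94 CPM, and a region 2.30 kb upstream of Pglyrp3, at 16.3 and 4.50 CPM. Within the S100-fused group 11 of 51 regions were higher in suprabasal-like cells in Control and 7 of 53 in MOF cKO, and within the Lce group 8 of 49 and 2 of 49. Whether these class differences differ between the genotypes could not be tested with 1 library each. The genotype change inside suprabasal-like cells had a median of −0.01, below the 0.06 of all shared regions, with 70 of 268 regions that rose (26.1%, beside 22.4%) and 31 that fell (11.6%, beside 11.6%). The share of calls that were higher was 69.3%, and it was 57.3% when scaled to all sites of the own peaks and 80.0% when scaled to sites per cell. Over all shared regions, 41805 rose and 21756 fell in these cells, so most calls of the genome were higher too. The genome-wide share under the other scalings is not given, so these shares do not set the complex apart. In the Sprr1-Sprr3-Ivl group 12 of 21 rose in suprabasal-like cells, with a median of 1.12. Its summed suprabasal-like level went from 116.7 to 164.7 CPM, a ratio of 1.41, below the 1.55 of the Lce group (178.1 to 275.9 CPM) and the 1.62 of the Sprr2 group (14.6 to 23.6 CPM), so that the order by summed level differed from that by median, with overlapping counting intervals of the 3 ratios.

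In fibroblast-like cells the complex moved as the genome did, with a median of 0.02. Of 197 regions 22 rose (11.2%, beside 10.98%) and 15 fell (7.61%, beside 7.17%). Here 59.5% of the calls were higher, and 37.1% when scaled to sites per cell. Over all shared regions, 21870 rose and 14267 fell in fibroblast-like cells, so most calls of the genome were higher too. Immune-like cells of MOF cKO were lower than epithelial-like cells at least 2-fold at 192 of 271 regions (70.8%, beside 47.7%) and higher at 13 (4.80%, beside 16.2%). The higher ones included the S100a2 promoter, at 22.3 CPM beside 4.09 CPM in epithelial-like cells, and a region 11.6 kb downstream of S100a10, at 60.8 beside 18.3 CPM.

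MOF cKO-only regions were about as frequent as in the genome as a whole, and Control-only regions were less frequent. Of the Control peaks of the complex 91.9% (88.2 to 94.7) overlapped a MOF cKO peak, beside 86.8% of all Control peaks. Of the MOF cKO peaks 63.6% (58.9 to 68.2) overlapped a Control peak, beside 64.0% of all. Of the 451 merged regions, 156 had a peak in MOF cKO only (34.6%, beside 33.2% of all merged regions) and 24 in Control only (5.32%, beside 8.92%). Peaks were called in each library on its own, and MOF cKO had more cells and sites, so a missing peak is not a level of 0. By group, MOF cKO-only regions were 11 of 22 in Sprr2, 15 of 36 in Sprr1-Sprr3-Ivl, 36 of 89 in Lce, 19 of 48 around Pglyrp3, Lor and Lelp1, 30 of 87 in the S100-fused group, 13 of 46 at S100a11-S100a10, 8 of 27 in the Pglyrp4 interval, 15 of 65 in the S100 block, 6 of 26 at the Ints3 end and 3 of 5 at the Tdpoz end. Sprr1-Sprr3-Ivl, Sprr2 and the Tdpoz end had 0 Control-only regions. The median level of MOF cKO-only regions in its epithelial-like cells was 0.890 CPM (quartiles 0.588 and 1.67). Those with the highest level were 3.39 kb from the start site of Sprr3 (chr3:92454879-92455786), at 8.75 CPM, 4.88 kb from that of S100a7a (chr3:90658745-90659624), at 7.99 CPM, and at the promoter of Lce1f (chr3:92720061-92720946), at 7.81 CPM. Each of these 3 holds an AP-1 heptamer. The Control-only region with the highest level, in an intron of S100a11 (chr3:93520815-93521317), was at 17.8 CPM and adjoins the shared S100a11 promoter region that ends at chr3:93520813.

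The AP-1 heptamer was more frequent in the distal regions that rose than in the rest. TGAGTCA or TGACTCA, which are each other's reverse complement and so cover both strands, lay in 29 of 46 distal regions that rose (63.0%, 47.5 to 76.8), in 21 of 119 within 2-fold (17.6%, 11.3 to 25.7) and in 0 of 8 that fell (up to 36.9%). Lengths were alike, with medians of 920, 911 and 925 bp. The same was seen in the whole genome, at 61.7% of all distal regions that rose and 9.95% of those that fell, and at 28.9% of all 173 distal regions of the complex beside 28.3% of all distal regions. Read the other way, the 50 distal regions of the complex with a heptamer had a median log2 change of 1.33, and 29 of them rose (58.0%, beside 44.0% of all distal regions with one). The 123 without it had a median of −0.14, beside −0.20 for all distal regions without one, and 17 rose (13.8%, beside 10.8%). MOF cKO-only regions held it in 68 of 156 (43.6%, beside 44.3% of all MOF cKO-only regions) and Control-only regions in 2 of 24 (8.33%, beside 8.97%), so that the complex did not stand apart from the genome here. These letters are a description of the sequence, and binding was not measured.

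**Figure D5:**
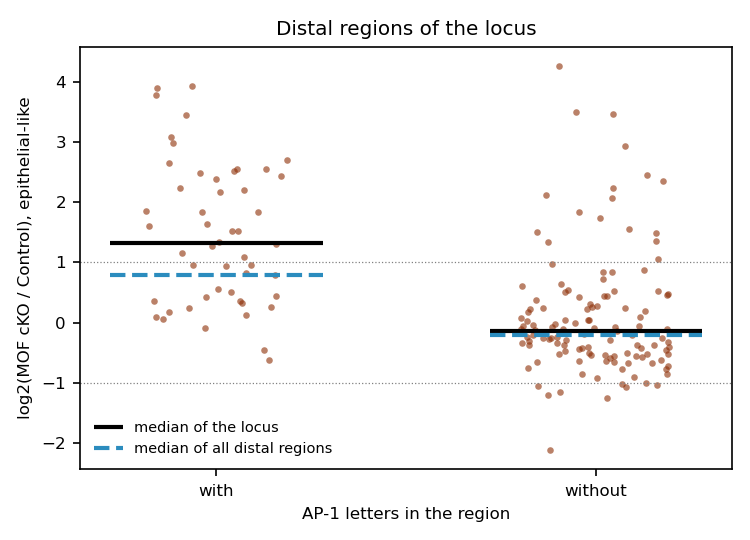
Log2(MOF cKO / Control) in epithelial-like cells of the 173 distal shared regions of the complex with and without an AP-1 heptamer. Black bars are the medians over the complex, 1.33 and −0.14, and dashed blue bars those over all distal regions of the genome, 0.80 and −0.20.

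Genes of cornification outside the complex were mostly lower in MOF cKO or little changed. Of 16 such genes 14 had a shared promoter region, with a median log2 change of −0.37 in epithelial-like cells, near that of all promoters. The promoters of the spinous keratins were lower in MOF cKO. Krt1 was at 13.2 and 8.33 CPM (log2 −0.66) and Krt10 at 21.8 and 11.7 CPM (log2 −0.90). The difference was larger in suprabasal-like cells, at −1.44 and −1.34. Both genes set that class apart less in MOF cKO. Scored over the whole gene, log2(suprabasal-like / basal-like) was 0.61 and 0.48 in Control, and 0.19 and 0.17 in MOF cKO. The sub-clusters of the class had 11 suprabasal markers past the margin in 90 Control cells. In MOF cKO they had 5 in 445 cells and 10 in 241 cells. Whether the larger difference lies within the same layer was not tested. The promoter of Abca12, a lipid transporter, was at 9.85 and 5.16 CPM (log2 −0.93). In the whole epithelial-like class only Tgm3, a transglutaminase that cross-links envelope precursors, rose, from 0.846 to 1.70 CPM, and its value was −0.41 in basal-like cells. Klk5, a kallikrein protease of the outer epidermis, was at 3.78 and 6.77 CPM (log2 0.84, 0.60 to 1.08), with 0.79 in basal-like cells. In suprabasal-like cells it rose from 2.98 to 6.26 CPM (log2 1.07), the Control value from 90 cells. Aloxe3, a lipoxygenase of the skin barrier, was at 53.9 and 68.3 CPM (log2 0.34, 0.28 to 0.41). Within the complex 9 of 39 promoter regions rose, as given above.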

How the data were processed

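Sorted cells of 1 Control and 1 MOF cKO library were profiled by single-cell ATAC-seq. The authors aligned reads to mm10 with Cell Ranger ATAC, and called peaks and cells in each library separately. The deposited matrices hold raw counts of cut sites per peak and cell barcode, 88.8% (Control) and 91.6% (MOF cKO) of them even, so that intervals were computed on sites divided by 2.

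Cells with at least 1000 sites were kept. Shared regions, without those of the complex, were clustered (latent semantic analysis with 30 vectors, Leiden at resolution 1). Clusters were named from marker genes, each scored over all shared regions from 2000 bp upstream of the gene to its end. The 2 clusters of the highest doublet scores, with 99 Control and 91 MOF cKO cells in all, were left out. Layers came from clustering epithelial-like cells of each library again and were named from the same kind of score. Regions with at least 20 sites over both sides entered a comparison, a side under 3 sites was set to 3, and at least 2-fold counted as a change. Distances and start sites follow GENCODE vM21, and motifs the GRCm38 sequence. The regions named were the 5 that rose and the 5 that fell most among distal regions with at least 500 epithelial-like sites, promoter regions with at least 100, the regions of highest level, and, added later, regions that stood out by class. The gene lists and members were chosen with earlier results of these data known. Region scripts were tested on simulated data. Numpy 2.4.6, scipy 1.17.1, scikit-learn 1.9.0 and leidenalg 0.10.2 were used.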

Additional observations from a re-analysis of the deposited data

Results flagged for a closer look

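In Control, 305 cells of low depth, with a median of 2486 sites, formed a cluster that was given no name and entered no comparison. The complex took 0.131% (0.122 to 0.140) of their sites in shared regions. This was looked at again because the signal lies outside the cells compared, above the limit that a count of 0 allows. The value lies between the 0.0812% of fibroblast-like and the 0.162% of epithelial-like cells of the same library. MOF cKO had 4 such cells.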

How the results depend on the processing

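No paired analysis was possible because each genotype had 1 library, and no replicate could be left out. Under other settings 232 values stayed within the counting interval or the interval of the median of the main value and 19 did not, and none that had an interval clear of 0 changed sign. This tally is a weak check. Dropping the minimum of sites left the epithelial-like medians as they were, and the interval of a median is wide in small groups. Without hair follicle-like and unassigned epithelial cells, the Pglyrp4 interval went from −0.18 to −0.55 and Sprr2 from 0.43 to 0.13, and both count as stayed. Scaling to all sites of the own peaks moved the epithelial-like median of all regions from −0.09 to −0.23 and that of the complex from 0.13 to −0.02. A scaling adds the same constant to every region, so the distance of the complex from all regions, 0.21, cannot change with it. The same scaling gave −0.56 for the Ints3 end and −0.20 for suprabasal-like cells, with 17 epithelial-like regions that fell, beside 6 with median-of-ratios factors. Scaling to sites per cell gave medians of 0.17 (suprabasal-like), 0.22 (basal-like) and −0.26 (fibroblast-like). Presence or absence per cell gave −0.12 in suprabasal-like cells and MOF cKO shares of 0.180% (epithelial-like), 0.178% (basal-like) and 0.189% (suprabasal-like). Without the cells of the highest doublet scores the Control epithelial-like share was 0.160%. Thinned to 5000 sites, the median share per cell was 0.180% in MOF cKO epithelial-like, 0.160% in Control basal-like, 0.2% in Control and 0.180% in MOF cKO suprabasal-like, and 0.0800% in MOF cKO fibroblast-like cells. With equal numbers of the strongest peaks, 81.8% of Control and 74.7% of MOF cKO peaks overlapped. Within 150 bp of the centre, 43.5% of the distal regions that rose held the AP-1 heptamer. Without hair follicle-like and unassigned epithelial cells, a choice made after seeing the data, the median of distal regions was −0.054. For these shifts the cause was not tested.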

Other observations

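The minor cell classes lay at or slightly above the fibroblast-like level and well below the epithelial-like one. The complex took 0.0870% of the sites in Control and 0.0913% in MOF cKO mural-like cells, 0.0867% and 0.0889% in endothelial-like cells, and 0.0897% and 0.0948% in muscle-like cells, each from 9 to 69 cells per library. A cluster marked by Sox10 had 0.0840% and 0.0830%. Immune-like cells were higher, at 0.0911% (0.0851 to 0.0973) from 46 Control cells and 0.106% (0.103 to 0.109) from 281 MOF cKO cells.

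Letters of 2 other factor families were also counted. The RUNX heptamer TGTGGTT, searched on both strands, lay in 16 of 46 distal regions of the complex that rose (34.8%, 21.4 to 50.2), in 23 of 119 within 2-fold (19.3%, 12.7 to 27.6), and in 2 of 8 that fell, differences that were not tested. Over the genome it lay in 22.6% of the distal regions that rose and 23.3% of those that fell. The GRHL octamer AACNGGTT lay in 3 of 46 (6.52%) and 17 of 119 (14.3%). Over all distal regions the 2 motifs were at 22.5% and 8.19%.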
